A study of Mus musculus with 8 samples.

Results

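Mouse embryonic stem (ES) cells of a line carrying a gene trap in Gtf2i were compared with wild-type ES cells on oligonucleotide expression arrays. The comparison takes the arrays labelled as the trap line and as wild-type, 2 of each, so 4 of the 8 arrays of the study. The trap cells derive from AB2.2 ES cells and carry the genotype label HPRT -/- : GTF2I +/-. By the label they are Hprt-mutant as well as heterozygous for the trap. The arrays' own values of both genes are given below and do not settle the label. The wild-type cells carry neither mutation, and their parent line is not named in the labels. The Hprt mutation, the trap and any difference between the parent lines therefore cannot be told apart in this comparison. The other arrays, used for side-by-side values, are 2 of an Hprt knockout line (HPRT -/-) and 2 of a targeted Gtf2i mutant derived from R1 cells (genotype Δexon2/+). According to the growth protocol all lines were kept with LIF over a feeder monolayer, and RNA of those fibroblasts can be part of each sample. Each mutant line is known here from 1 line, with nothing in the labels on how many clones it represents. The replicates are labelled biological, with no word on separate cultures; the p-values then measure the spread between these arrays, and 2 arrays a group limit their precision. Values are log2 intensities of 1 probe set for each of 18193 genes, of which 13819 were bright enough on at least 2 of the 8 arrays to be tested, and a difference of 1 on this scale is 2-fold.

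Gtf2i encodes TFII-I, a signal-responsive transcription factor that binds initiator and E box elements and is found together with serum response factor (SRF) at the Fos promoter. The gene lies in the interval that is deleted in Williams-Beuren syndrome, a developmental disorder with vascular, craniofacial and cognitive features. Hprt encodes the enzyme that salvages hypoxanthine and guanine for purine nucleotide synthesis, and its loss is widely used as a selection marker in ES cells. SRF, with its actin-sensing partners, binds CArG boxes and drives immediate early and contractile genes, and the coactivator YAP, bound to TEAD factors, drives a partly shared set of matrix and growth genes in spread, tense cells. ES cells in LIF hold the pluripotency network, in which Pou5f1, Sox2 and Nanog form the core and Klf2, Klf4, Esrrb, Tbx3, Tfcp2l1 and Prdm14 mark the naive state.

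The ES label was borne out by its markers in both lines. All 29 genes of the pluripotency list were above the filter on low signals in every group. Pou5f1 stood at 12.74 and 12.82 on the wild-type arrays and 13.03 and 12.99 on the trap arrays, and Nanog at 12.53 and 12.53 against 12.44 and 12.50. Fibroblast markers were also bright in both: the mean log2 level of 34 such genes was 12.3 to 12.4 on the wild-type arrays and 11.8 on both trap arrays. The same mean was 11.5 to 11.6 on the exon 2 mutant arrays and 7.95 to 7.98 on the Hprt knockout arrays. In these bulk samples fewer cells of a type and less RNA per cell cannot be told apart. Arrays of 1 group lay close together, with an SD of the difference over genes of 0.130 between the trap arrays and 0.135 between the wild-type arrays, against 0.421 to 0.429 between a trap and a wild-type array.

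The targeted genes were examined in every array before the rest. Hprt was at 12.09 and 12.08 on the wild-type arrays and at 10.76 and 10.72 on the trap arrays. It was at 10.05 and 10.02 in the Hprt knockout and at 12.25 and 12.25 in the exon 2 mutant. The trap arrays thus lay below both Hprt-intact lines and above the Hprt knockout, with no overlap. Hprt was 2.53-fold lower in the trap line than in wild-type cells (log2 -1.34 ± 0.05 (SE), adjusted p = 9.09e-06), and it exceeded the Hprt knockout by 0.71 ± 0.05 on the log2 scale (adjusted p = 1.36e-05). The Hprt signal of the trap arrays thus lay far above the filter level, as did that of the Hprt knockout, although both lines are labelled HPRT -/-. No source used here gives the position of the Hprt probes relative to the mutation. RNA of the feeder fibroblasts can also be part of the signal, and its part was not tested. These values therefore do not check the label.

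Gtf2i itself did not differ past the threshold between the trap line and wild-type. Its brightest probe set read 10.10 and 10.14 on the wild-type arrays and 10.11 and 10.07 on the trap arrays, a difference of -0.03 ± 0.05 (adjusted p = 0.638). The trap and wild-type values overlap. Both were lower than the Hprt knockout at 10.92 and 10.89 and the exon 2 mutant at 10.45 and 10.51. A dimmer probe set of Gtf2i read 7.72 and 7.81 in wild-type and 7.91 and 7.92 in the trap line, a difference of 0.15 (adjusted p = 0.131 over all probe sets), and the other 2 probe sets were below the filter. A trapped allele can still give a fused transcript that contains the exons before the insertion. No source used here places these probes relative to the insertion, so they do not check the trap. Gtf2ird1, a neighbouring family member, was higher by 0.43 ± 0.06 (adjusted p = 0.00110), and Gtf2ird2 differed by 0.06 (adjusted p = 0.626).

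**Figure D1:**
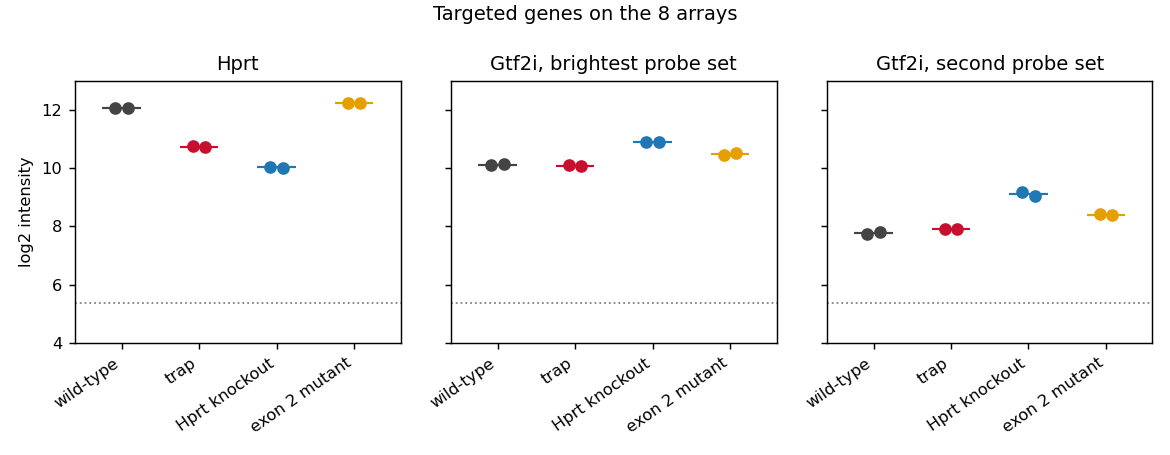
Log2 intensity (vertical axis) of Hprt and of the brighter and dimmer tested probe sets of Gtf2i on each array, by group; points are arrays, short lines are group means and the dotted line is the average level of the filter on low signals, 5.35. Hprt in the trap line lies between the Hprt knockout and the 2 lines with intact Hprt, while the Gtf2i values of the trap and wild-type arrays are 10.07 to 10.14 on the brighter probe set.

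Expression differed widely between the lines, mostly by small amounts. At an adjusted p under 0.05, 5673 of the 13819 genes tested were called (41.1%), 3662 higher in the trap line (26.5%) and 2011 lower (14.6%). Of these calls 4130 were under 1.5-fold, and the median difference over all genes tested was 0.05. Under cyclic loess scaling of the arrays the calls split evenly, 2792 higher and 2798 lower, while under median centring the excess widened to 4091 higher and 1787 lower. The balance of higher and lower calls thus depends on the scaling of the arrays. The larger differences leaned the other way: 473 genes were called with at least a 2-fold difference (3.42%), 215 higher (1.56%) and 258 lower (1.87%), and at 4-fold the counts were 20 higher and 35 lower. The 2 trap arrays did not overlap the 2 wild-type arrays for 10149 genes (73.4%), so non-overlap alone marks no gene out. Of the 215 genes at least 2-fold higher, 35 were below the filter level on both wild-type arrays. Of the 258 lower genes, 21 were below it on both trap arrays. Folds are compressed at such levels. Where a gene called at least 2-fold had another probe set above the filter, 97.3% of these 262 probe sets had the same sign and none was called the opposite way.

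**Figure D2:**
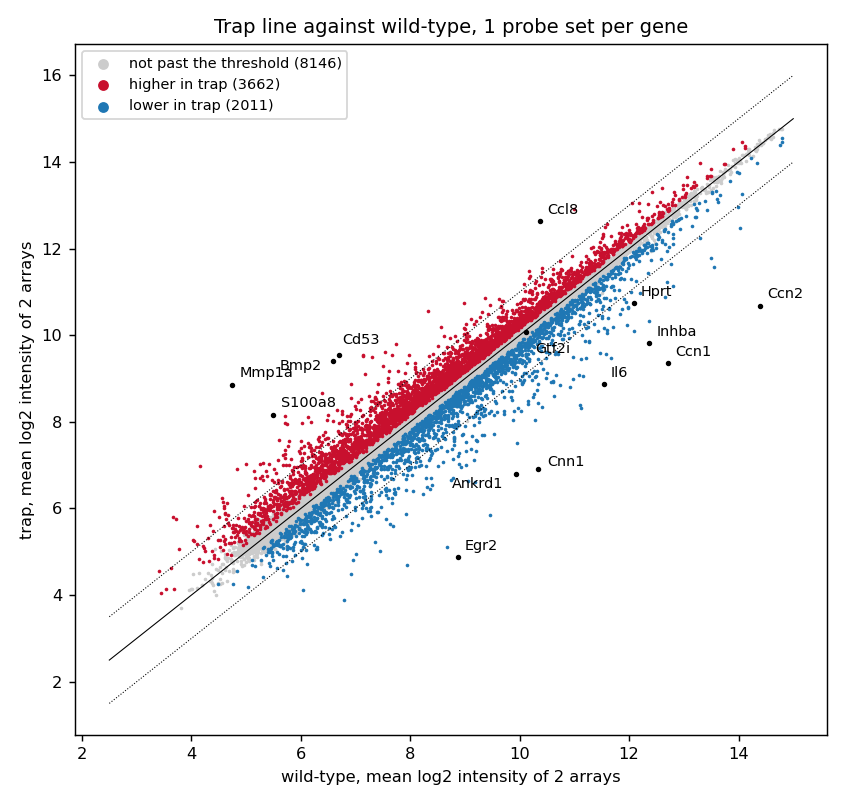
Mean log2 intensity of the 2 trap arrays (vertical axis) against that of the 2 wild-type arrays (horizontal axis) for the 13819 genes tested, coloured by call; the solid line marks equality and the dotted lines 2-fold differences. Most called genes lie inside the dotted lines, and the wide falls include bright wild-type genes such as Ccn2, Ccn1 and Cnn1.

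The largest falls were of Egr2, Ccn2, Asb5, Dcaf8l and Cnn1. Egr2, an immediate early zinc finger factor, was at 8.80 and 8.94 in wild-type and 4.77 and 4.97 in the trap line, where it lay below the filter level. The difference was -4.00 ± 0.14 (adjusted p = 9.86e-06), and its other probe set gave -4.11; with the trap signal this dim, the size of the fall is uncertain. Ccn2, a matricellular growth factor induced by YAP and TGF-beta, read 14.40 on both wild-type arrays and 10.65 and 10.72 on the trap arrays. It was 13.1-fold lower (log2 -3.71 ± 0.06, adjusted p = 6.78e-07). Its relative Ccn1 fell by 3.34 ± 0.06, from 12.73 and 12.68 to 9.39 and 9.34, with 3 further probe sets at -3.79 to -3.61. Calponin Cnn1, a smooth muscle actin-binding protein, fell from 10.34 and 10.35 to 6.95 and 6.87, or 10.8-fold. Ankrd1, a muscle ankyrin repeat protein and a standard YAP readout, fell from 9.93 and 9.95 to 6.77 and 6.82, or 8.84-fold. In all 5 genes the arrays of a group lay close together. Only genes whose arrays do not overlap between the groups could be named among the largest falls, so their separation was set by the choice.

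Further falls of 4-fold or more were Asb5, a muscle SOCS box protein, from 9.46 and 9.47 to 5.69 and 6.03, and Gjb2, the gap junction protein connexin 26, from 7.88 and 8.01 to 4.64 and 4.76. Dcaf8l fell by 3.56, Chsy3, a chondroitin synthase, by 2.90, and Tnmd, the tendon protein tenomodulin, by 2.44. Zfp469 fell by 2.42 ± 0.22 and Stbd1, a glycogen-binding protein, by 2.42 ± 0.06. The cadherin Cdh19 fell by 2.41 ± 0.09 and the neuropeptide precursor Nts by 2.14 ± 0.23. The trap signals of Stbd1, Cdh19, Nts, Gjb2, Dcaf8l and Chsy3 lay below the filter, so the sizes of these falls are uncertain. The cytokine Il6 fell from 11.52 and 11.56 to 8.86 and 8.87, and Inhba, the activin A subunit, from 12.42 and 12.32 to 9.82 and 9.83. Hbegf, an EGF-family ligand, differed by -2.20 ± 0.05, with its other probe set at -1.88. Some of the large falls depended on the probe set. Rspo2, a Wnt-enhancing secreted protein, read -2.80 on its brighter probe set and -0.21 on the other. Lif, the cytokine that is also added to the medium, read -2.24 and -0.07, and Lurap1l read -2.71 and -0.84.

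**Figure D3:**
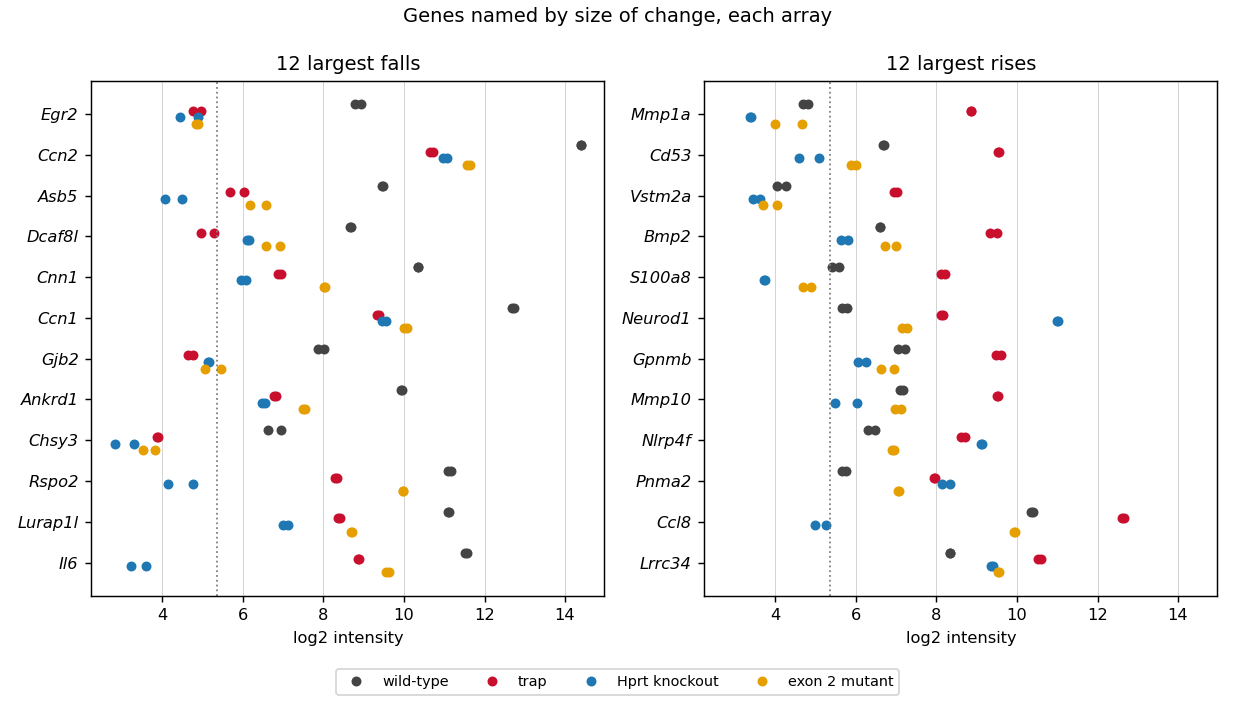
Log2 intensity (horizontal axis) on each of the 8 arrays for 12 of the largest falls (left) and 12 of the largest rises (right) from wild-type to trap; each point is 1 array, coloured by group, and the dotted line is the average filter level. The wild-type and trap arrays form separate pairs in every gene shown, as the choice of genes required. Egr2, Dcaf8l, Gjb2 and Chsy3 in the trap line lie left of the dotted line.

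The genes of the SRF and YAP programmes were read as groups. For these and the later lists, the shares over all genes tested were 26.5% called higher and 14.6% lower. Contractile targets of SRF were lower throughout: 26 of 26 members tested were called lower in the trap line, 13 of them at least 2-fold, with a median of -1.01 against 0.05 over all genes. This list and the YAP list below were written after the differences had been seen, so their counts describe the genes and are no separate evidence. Smooth muscle actin Actg2 fell by 2.07, the light chain Myl9 from 12.10 and 12.10 to 10.14 and 10.05, transgelin Tagln from 13.49 and 13.49 to 11.80 and 11.77, and the focal adhesion protein Vcl from 12.78 and 12.82 to 11.13 and 11.15. The LIM protein Fhl1 went from 11.57 on both arrays to 9.61 and 9.54. Srf itself was lower, at 10.02 and 10.04 against 8.22 and 8.29 (log2 -1.78 ± 0.07, adjusted p = 1.59e-05), with its other probe set at -0.85. The broadly expressed actins Actb and Actg1 fell less, at -0.24 and -0.36. Without 1 of the 4 arrays 24 to 26 of the 26 were still called lower.

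Immediate early genes, which cells switch on within minutes of a growth factor signal, behaved likewise. Of 22 tested, 19 were lower, 0 higher and 3 did not pass (Jun at -0.15, Egr3 at -0.12 and Fosl1 at -0.31), with a median of -0.62. Egr1 fell from 11.49 and 11.46 to 9.60 and 9.56, Fos from 9.13 and 9.32 to 7.44 and 7.66, while Nr4a1, an orphan nuclear receptor, differed by -1.47. Dusp5, a nuclear ERK phosphatase, fell by 1.88. In the list of TFII-I partners and reported targets, Srf and Fos were the largest changes, and 7 of 21 members were higher, 4 lower and 10 not past the threshold. Among the higher were Brca1 at 0.68 ± 0.05, the histone methyltransferase Nsd1 at 0.60, whose other probe sets gave 0.12 and 0.13, and Ccnd1 at 0.57. Leaving out 1 array gave 5 to 7 higher and 2 or 3 lower members. The median of that list, 0.03, turned to -0.05 under cyclic loess scaling, with 5 higher and 5 lower.

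YAP targets divided. Of 21 tested, 10 were lower, all at least 2-fold, 4 were higher and 7 did not pass, with a median of -0.15. Beside Ccn2, Ccn1 and Ankrd1, the lower members were tissue factor F3 (from 11.10 and 11.24 to 9.01 and 9.10), Tgfb2, the YAP inhibitors Amotl2 and Lats2 (-1.73 and -1.65), Nuak2, Crim1 and Ccdc80. Gadd45a at 0.93, Myof at 0.62, Ptpn14 at 0.32 and Axl at 0.24 were higher. The list of cytoskeleton and adhesion genes had 19 of 27 lower and 4 higher, the latter being Icam1, the laminin receptor subunit Itga6, Ezr and E-cadherin Cdh1.

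The fibroblast list moved in the same direction but less evenly, and shares Ccn1, Ccn2, Tagln, Acta2 and Cald1 with the lists above. Of its 34 genes, 19 were lower, 3 higher and 12 not past the threshold, with a median of -0.35. Collagen Col1a1 fell from 12.18 and 12.22 to 11.00 and 10.97, and the collagen cross-linking enzyme Lox by 1.02. Col5a1 went from 12.35 and 12.34 to 11.49 and 11.41, and Pdgfrb from 11.75 and 11.72 to 10.76 and 10.98. Other fibroblast markers did not pass, among them Lum at -0.00, Fn1 at -0.02, Fap at 0.05 and Prrx1 at -0.11. Dcn at 0.50, Twist2 at 0.59 and S100a4 at 0.80 were higher. In the Hprt knockout line, against wild-type, all 34 fibroblast genes were lower (25.1% of all genes were lower there, 46.4% higher and 71.5% called in either direction), and so were 25 of the 26 contractile genes. In the exon 2 mutant 32 of the 34 fibroblast genes were lower than in wild-type and 0 higher, with a median of -0.59. Over all genes 23.1% were lower there and 32.5% higher. The part of the feeder cells in the falls of contractile, immediate early and secreted genes was not tested.

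The other lines place these falls. The comparisons below share arrays with trap against wild-type, so they are not independent of it. In the exon 2 mutant against wild-type, where 55.5% of genes were called (32.5% higher and 23.1% lower), the contractile list had 26 of 26 lower with a median of -1.11. Set directly against the trap line, where 49.2% of genes were called (24.5% higher in the exon 2 mutant and 24.7% lower), 6 contractile genes were higher in the exon 2 mutant and 5 lower, with a median of -0.05. Ccn2 was 0.92 ± 0.06 higher in the exon 2 mutant than in the trap line, at 11.57 and 11.63, and Cnn1 1.13 ± 0.06 higher. Egr2 did not differ between those 2 lines (-0.01 ± 0.14, adjusted p = 0.974), both being below the filter level. Against the Hprt knockout, where 68.4% of genes were called (26.6% higher in the trap line and 41.8% lower), 19 contractile genes were higher in the trap line and 1 was lower. Myl9 stood 2.24 ± 0.06 above the Hprt knockout, while Srf differed by 0.06 ± 0.07 (adjusted p = 0.487). Of the 22 immediate early genes, 19 were below wild-type and 1 above in the exon 2 mutant (median -1.09). In the Hprt knockout 17 were below and 4 above (median -1.56). For the 21 YAP targets the counts were 17 and 1 in the exon 2 mutant (median -1.05) and 19 and 2 in the Hprt knockout (median -2.20). Over all genes, 25.1% were below wild-type in the Hprt knockout and 46.4% above. These falls are therefore not particular to the trap line.

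Promoter sequences of the falling genes are shown because the CArG box, the SRF binding motif, was found in a larger share of them. They are taken from the RefSeq promoter table (build GRCm38.p6), which spans 250 bases before to 50 bases after each start and held 11047 of the genes tested. On either strand, a CArG box was found for 9.42% of 191 genes at least 2-fold lower, 2.44% of 164 genes at least 2-fold higher and 1.63% of all genes tested with a promoter, and in 1.63% of all 32851 promoters. The TEAD motif GGAATG was found for 24.6% of the lower genes, 15.9% of the higher and 14.6% of all tested (14.7% of all promoters). The AP-1 motif TGACTCA stood at 13.1%, 9.76% and 4.78% (5.20% of all promoters), the TATA motif TATAAA at 22.0%, 17.1% and 9.46% (13.6%), the E box CACGTG at 11.0%, 8.54% and 11.4% (7.15%), and the GC box GGGCGG at 58.1%, 51.2% and 66.0% (35.7%). The TEAD motif was added after the differences had been seen. A gene with several start sites counts when any of its promoters holds the motif. These shares describe letters in a window and were not tested.

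In the sequences below, written 5′ to 3′ on the gene's strand, the capitals mark the CArG box. Egr2 (chr10:67537316-67537615, plus strand) has it 72 bases before the start and Asb5 (chr8:54550081-54550380, plus strand) 211 bases before; they are the largest falls that hold one. Myl9 (chr2:156775214-156775513, plus strand) has it 161 bases before the start and Fhl1 (chrX:56779433-56779732, plus strand) 102 bases before; they are the largest falls of the contractile list that hold one. On that list 10 of 22 members with a promoter held the motif, beside 1.63% of genes tested with a promoter. Its members were chosen as SRF targets after the differences had been seen, so this share is no separate evidence.
Egr2: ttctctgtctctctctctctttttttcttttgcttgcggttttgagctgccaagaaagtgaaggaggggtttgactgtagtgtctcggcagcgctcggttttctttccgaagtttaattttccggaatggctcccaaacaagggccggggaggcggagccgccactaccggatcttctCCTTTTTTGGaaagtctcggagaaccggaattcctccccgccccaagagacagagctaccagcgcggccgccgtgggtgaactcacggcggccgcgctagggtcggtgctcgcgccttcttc
Asb5: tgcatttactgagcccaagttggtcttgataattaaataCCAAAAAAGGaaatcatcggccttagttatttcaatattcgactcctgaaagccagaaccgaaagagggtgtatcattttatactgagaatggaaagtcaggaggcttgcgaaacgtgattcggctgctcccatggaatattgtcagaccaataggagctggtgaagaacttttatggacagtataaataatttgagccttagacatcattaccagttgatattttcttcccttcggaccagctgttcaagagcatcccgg
Myl9: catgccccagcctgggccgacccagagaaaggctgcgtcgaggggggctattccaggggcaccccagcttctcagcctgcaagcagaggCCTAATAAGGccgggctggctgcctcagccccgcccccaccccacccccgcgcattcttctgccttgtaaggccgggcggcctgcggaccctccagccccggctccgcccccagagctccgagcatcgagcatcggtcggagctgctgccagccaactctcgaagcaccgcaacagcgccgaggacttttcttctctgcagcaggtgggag
Fhl1: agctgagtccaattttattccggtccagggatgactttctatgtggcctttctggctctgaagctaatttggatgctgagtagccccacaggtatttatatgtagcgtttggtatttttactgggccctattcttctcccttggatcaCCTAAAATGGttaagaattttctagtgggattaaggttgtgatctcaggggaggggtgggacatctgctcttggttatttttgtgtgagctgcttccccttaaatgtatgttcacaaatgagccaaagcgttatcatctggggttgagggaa

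For the YAP targets the capitals mark the TEAD motif, read on either strand. Ccn1 (chr3:145649936-145650235, minus strand) has 1 match, 103 bases before the start, and Ankrd1 (chr19:36119795-36120094, minus strand) has 2, at 210 and 123 bases before. Of the YAP list 7 of 15 members with a promoter held a match, and these include Axl and Ptpn14, which were higher in the trap line. The share over genes tested with a promoter was 14.6%, and the list was chosen as YAP targets after the differences had been seen.
Ccn1: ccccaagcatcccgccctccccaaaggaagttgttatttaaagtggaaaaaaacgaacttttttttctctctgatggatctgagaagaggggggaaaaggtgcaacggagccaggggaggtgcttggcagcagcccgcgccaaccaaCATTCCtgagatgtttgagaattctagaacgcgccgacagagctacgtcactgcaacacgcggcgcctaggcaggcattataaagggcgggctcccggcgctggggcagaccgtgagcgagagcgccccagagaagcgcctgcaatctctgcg
Ankrd1: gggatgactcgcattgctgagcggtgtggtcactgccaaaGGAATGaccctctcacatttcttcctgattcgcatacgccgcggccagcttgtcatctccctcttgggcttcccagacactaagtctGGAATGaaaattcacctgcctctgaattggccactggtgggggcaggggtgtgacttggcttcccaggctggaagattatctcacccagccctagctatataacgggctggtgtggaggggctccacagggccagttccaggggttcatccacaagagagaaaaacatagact

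Enzymes of cholesterol and fatty acid synthesis were higher in the trap line almost as a whole. These genes are driven by the sterol-sensing SREBP factors, which enter the nucleus when membrane sterol is low. Of 23 tested, 22 were higher and 0 lower, with a median of 0.67 against 0.05 over all genes. The exception, Srebf1, differed by 0.21 (adjusted p = 0.0677). Along the pathway, HMG-CoA synthase Hmgcs1 went from 11.46 and 11.56 to 12.26 and 12.24, the isomerase Idi1 from 9.64 and 9.70 to 10.62 and 10.70, squalene synthase Fdft1 from 10.39 and 10.45 to 11.22 and 11.16, and squalene epoxidase Sqle from 9.70 and 9.79 to 10.32 and 10.37. The late enzyme Dhcr7 rose by 0.80, and Insig1, the sterol-responsive retention protein of SREBP, from 9.01 and 9.04 to 9.75 and 9.64. The trap arrays lay above the wild-type arrays in each of these 6 genes. The median over the list was 0.70 and 0.66 above the wild-type mean on the trap arrays, 0.27 on both Hprt knockout arrays, and -0.07 and 0.05 on the exon 2 mutant arrays.

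In fatty acid synthesis the desaturase Scd1 rose from 8.68 and 8.78 to 9.96 and 9.93 (log2 1.22 ± 0.07, adjusted p = 3.55e-05) and the elongase Elovl6 by 1.09 ± 0.07. The rise of some members was smaller on another probe set: Scd1 0.32, Elovl6 from 0.05 to 1.06, and Msmo1 0.05 against 0.83. Acly at 0.18, Fasn at 0.25 and Acaca at 0.29, the enzymes before desaturation, rose least. Set directly against the trap line, the exon 2 mutant was lower for 20 of the 23 and higher for 0, with a median of -0.67. Idi1 was 1.32 ± 0.07 lower there and Scd1 1.33 ± 0.07 lower. The trap line was above the Hprt knockout for 12 members and below it for 4. In the exon 2 mutant against wild-type, 4 were higher and 5 lower. Without 1 of the 4 arrays 20 members stayed higher in each case.

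**Figure D4:**
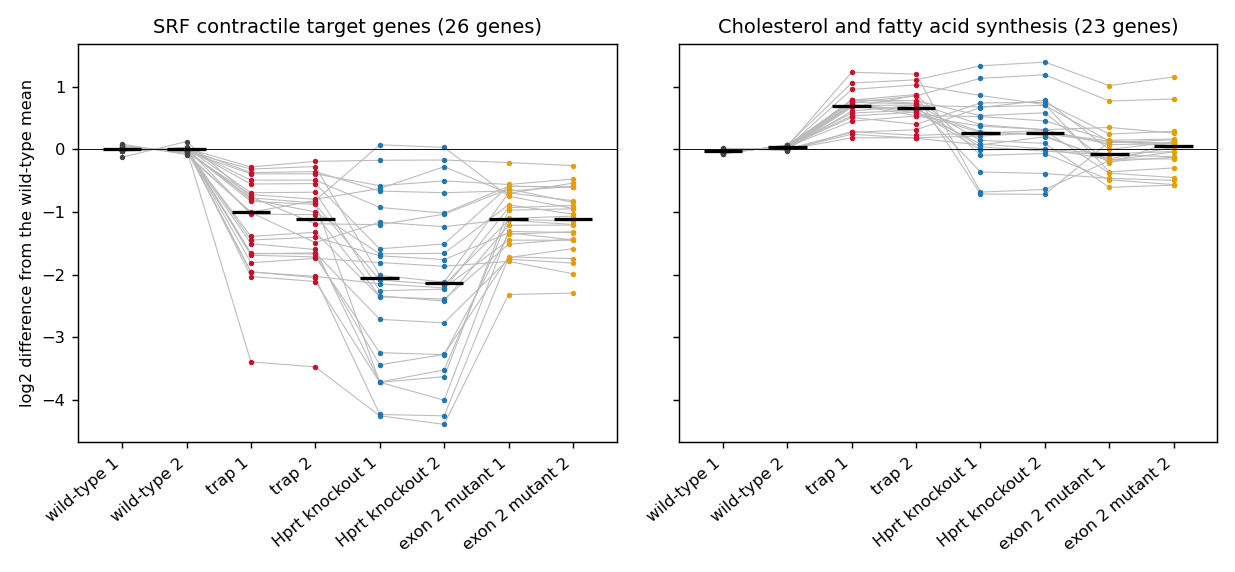
Difference of each gene from its wild-type mean (vertical axis, log2) on each of the 8 arrays, for 26 contractile SRF targets (left) and 23 genes of cholesterol and fatty acid synthesis (right); points are genes, grey lines join a gene across arrays and black bars are list medians. The contractile medians are -1.01 and -1.12 on the trap arrays, and the synthesis medians are 0.70 and 0.66.

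The sterol regulatory element, searched as TCACNCCAC on either strand and added after the differences had been seen, was in 1 of 17 synthesis promoters (5.88%), against 1.44% of genes tested and 1.24% of all promoters. That promoter, of Hmgcs1 (chr13:119690101-119690400, plus strand), is shown with the match in capitals, 137 bases before the start.
Hmgcs1: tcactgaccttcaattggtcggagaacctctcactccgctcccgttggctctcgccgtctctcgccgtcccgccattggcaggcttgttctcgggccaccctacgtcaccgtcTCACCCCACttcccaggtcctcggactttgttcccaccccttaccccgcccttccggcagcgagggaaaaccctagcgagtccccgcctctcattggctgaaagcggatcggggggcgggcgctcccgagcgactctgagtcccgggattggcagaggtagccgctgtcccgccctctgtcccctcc

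Among the largest rises were Mmp1a, Cd53, Bmp2 and S100a8. Mmp1a, an interstitial collagenase, was below the filter level on the wild-type arrays at 4.68 and 4.80 and read 8.86 on both trap arrays. The fitted difference was 4.12 ± 0.19 (adjusted p = 2.21e-05), and its size is uncertain because the wild-type signal lay below the filter. Cd53, a tetraspanin of leukocytes, rose from 6.68 and 6.71 to 9.53 and 9.56, and S100a8, a calcium-binding protein of granulocytes, from 5.42 and 5.58 to 8.20 and 8.13. Gpnmb, a membrane glycoprotein of macrophages and pigment cells, rose from 7.22 and 7.04 to 9.60 and 9.48. Bmp2, a growth factor of the BMP family, went from 6.59 and 6.60 to 9.32 and 9.51, or 7.06-fold. The neurogenic factor Neurod1 went from 5.78 and 5.66 to 8.12 and 8.17, and its other probe set gave 2.55. Trap and wild-type arrays did not overlap in any of the 6, as the rule for naming the largest rises required. The wild-type signal was also below the filter for Vstm2a (2.83), Cadps (2.15), a protein of vesicle release, Cyyr1 (2.08), Lrrc31 (2.04) and the calcium-binding protein Calb1 (2.04). It was above the filter for Nlrp4f (2.28), Pnma2 (2.26), Lrrc34 (2.23), from 8.33 and 8.33 to 10.52 and 10.59, the surface sialomucin Cd34 (2.21) and the glutathione peroxidase Gpx2 (2.06).

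The genes at least 2-fold apart were also read against the Hprt knockout and the exon 2 mutant. They were picked by their trap values, which these comparisons share, so the counts are no separate evidence. Mmp1a read 3.37 and 3.39 in the Hprt knockout and 3.99 and 4.67 in the exon 2 mutant. Relative to the exon 2 mutant, the trap line was higher for 162 of the 215 genes with at least a 2-fold rise and lower for 17. Over all genes tested these shares were 24.7% and 24.5%. The trap line exceeded the Hprt knockout for 124 of them and was below it for 59, beside 26.6% and 41.8% of all genes. Neurod1 was among those below, at 11.01 and 11.00 in the Hprt knockout, and the trap line stood at -2.86 ± 0.07 relative to it. Nlrp4f, Pnma2 and Cyyr1 also stood below the Hprt knockout, at -0.46, -0.28 and -1.64. Dpys, a pyrimidine-breakdown enzyme, rose by 2.07 over wild-type and lay 0.08 from the exon 2 mutant and 0.25 from the Hprt knockout. Of the 258 genes at least 2-fold lower, 113 were higher in the exon 2 mutant than in the trap line and 46 lower, and the trap line exceeded the Hprt knockout for 176 of them and lay below it for 49.

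Metalloproteinases, secreted enzymes that cut matrix proteins, were followed along their gene cluster on chromosome 9. In genomic order, Mmp13 was lower by 0.61 (called, adjusted p = 0.0383), Mmp12 was higher by 1.62, Mmp1b by 1.67, Mmp3 by 0.68, Mmp1a by 4.12 and Mmp10 by 2.39. Mmp8 and Mmp20 were below the filter, Mmp27 was not analysed here, and Mmp7 was higher by 0.16. Mmp3 was bright in both lines, at 13.31 and 13.28 against 13.99 and 13.96, and at 6.98 in the Hprt knockout. Neighbours in the cluster thus rose to different extents and 1 fell. Over the whole list of metalloproteinases and inhibitors, written after the differences had been seen, 10 of 20 were higher, 7 lower and 3 not past the threshold. The falls included Adamts5, an aggrecanase, at -1.63 and the inhibitors Timp3 at -0.95 and Timp1 at -0.46, while Timp2 rose by 0.58. Leaving out 1 array gave 8 higher and 4 to 6 lower members.

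The AP-1 motif was found for 7 of 16 members of the metalloproteinase list with a promoter, beside 4.78% of genes tested with a promoter. All 7 lie in the chromosome 9 cluster, among them Mmp13, which fell. Mmp1a (chr9:7463891-7464190, plus strand) and Mmp10 (chr9:7502092-7502391, plus strand), the largest rises of the list, are shown with the match in capitals, 73 and 63 bases before the start.
Mmp1a: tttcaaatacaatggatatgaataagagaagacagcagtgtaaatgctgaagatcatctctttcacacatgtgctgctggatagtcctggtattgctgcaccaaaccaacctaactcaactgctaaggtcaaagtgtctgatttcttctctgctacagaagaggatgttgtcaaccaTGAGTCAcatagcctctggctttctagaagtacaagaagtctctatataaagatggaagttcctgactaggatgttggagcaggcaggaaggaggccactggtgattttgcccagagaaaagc
Mmp10: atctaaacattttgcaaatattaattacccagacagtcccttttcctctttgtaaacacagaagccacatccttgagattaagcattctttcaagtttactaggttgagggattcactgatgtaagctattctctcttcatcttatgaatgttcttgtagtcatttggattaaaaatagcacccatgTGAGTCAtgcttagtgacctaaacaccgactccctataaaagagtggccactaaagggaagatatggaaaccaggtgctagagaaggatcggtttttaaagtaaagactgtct

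Because Cd53, S100a8 and Gpnmb are known from blood cells, markers of macrophages and granulocytes were counted. Of 28 on the array 19 were tested, 8 of them higher and 0 lower in the trap line; the list was written after those rises had been seen. The mean level of the 28 was 5.92 to 5.94 on the wild-type arrays and 6.30 to 6.36 on the trap arrays. Of the defining members, Ptprc (CD45) was below the filter on all arrays, Csf1r differed by -0.02 and Lyz2 by 0.06, at 9.05 and 9.08 against 9.07 and 9.17. S100a9, the usual partner of S100a8, was below the filter at 3.89 to 4.13. The macrophage receptor Adgre1 rose by 0.23, Cd68 by 0.75, the integrin Itgb2 by 0.80 and Coro1a by 0.75. Whether other cells contribute to these signals was not tested beyond these levels.

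Interferon-stimulated genes were mostly lower, while chemokine and acute phase genes moved in both directions. In the chemokine and acute phase list 13 of 25 were lower, 7 higher and 5 not past the threshold, with a median of -0.39. Ptgs2, the inducible cyclooxygenase, fell from 12.28 and 12.43 to 10.26 and 10.39, and the chemokine Cxcl10 from 10.64 and 10.59 to 8.94 and 8.93. The monocyte chemokine Ccl8 went the other way, from 10.36 and 10.39 to 12.64 and 12.61, or 4.76-fold higher (adjusted p = 1.09e-05). Other CC chemokines were also higher, Ccl7 by 0.64, Ccl2 by 0.39 and Ccl12, which is not on the list, by 2.22, while Ccl5 fell by 1.14. Both directions therefore occurred within the chemokines. In the Hprt knockout Ccl8 read 5.25 and 4.99 and Il6 averaged 3.41, and 24 of the 25 genes of this list were lower there than in wild-type. In the exon 2 mutant 20 of the 25 were lower than in wild-type and 2 higher, with a median of -0.61. Over all genes 23.1% were lower there and 32.5% higher.

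Of 27 interferon response genes 17 were lower and 4 higher, with a median of -0.46. The deubiquitinase-like Usp18 fell from 11.98 and 11.91 to 10.76 and 10.76, the interferon regulatory factor Irf7 by 1.06 ± 0.21, and Gbp2, Mx1, Ifih1 and Rsad2 by 1.03, 1.02, 0.98 and 0.97. Without 1 array 2 to 4 were higher and 16 or 17 lower. Ifitm1 rose from 10.46 on both arrays to 11.36 and 11.26, and Stat2, Irf1 and B2m were also higher. In the Hprt knockout 25 of the 27 were below wild-type, with a median of -3.10, where the fibroblast list had a median of -4.67. In the exon 2 mutant 19 of the 27 were below wild-type and 4 above, with a median of -0.42, beside 23.1% and 32.5% of all genes. The part of the feeder cells in these falls was not tested. The core of the interferon response element was found for 10 of the 23 members with a promoter, and for 7.33% of the genes at least 2-fold lower, 5.49% of those higher and 3.44% of genes tested (3.44% of all promoters).

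**Figure D5:**
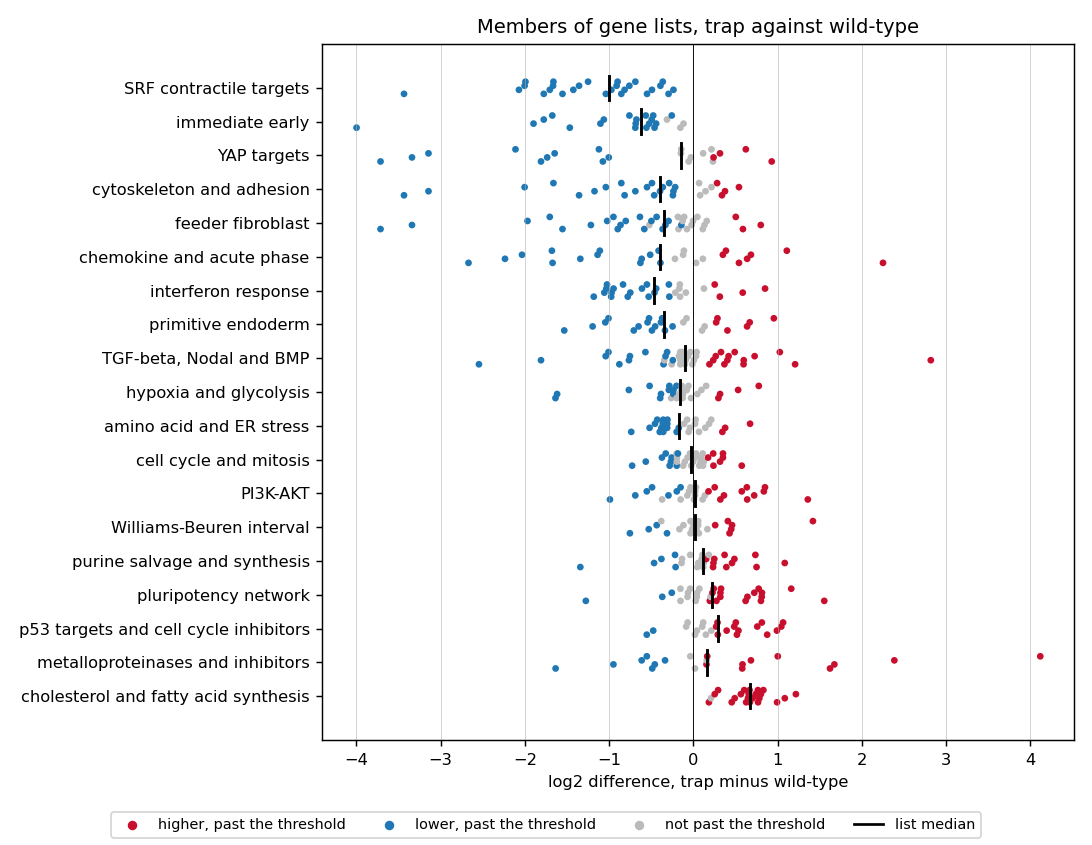
Log2 difference, trap minus wild-type (horizontal axis), of each tested member of 19 gene lists (rows); colours give the call and black bars the list medians. The contractile list lies wholly left of 0 and the cholesterol and fatty acid list wholly right of it, while most other lists hold genes on both sides.

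Several naive pluripotency factors rose, while the core factors differed by at most 0.23. Of 29 genes 16 were higher, 3 lower and 10 not past the threshold, with a median of 0.23; under cyclic loess 15 were higher and 5 lower. Prdm14, a repressor of differentiation and DNA methylation genes, rose from 7.51 and 7.73 to 9.22 and 9.13 (log2 1.55 ± 0.08, adjusted p = 3.09e-05). Klf2 rose from 10.15 and 10.19 to 11.39 and 11.28, Klf4 from 11.53 and 11.51 to 12.35 and 12.32, and Esrrb from 9.98 and 9.91 to 10.59 and 10.54. Tbx3, Tfcp2l1 and Nr0b1 rose by 0.78, 0.72 and 0.64. Nanog at -0.06, Zfp42 at 0.04 and Sox2 at 0.20 did not pass, and Pou5f1 rose by 0.23. Dppa3, a germ cell and oocyte factor, fell from 7.20 and 7.24 to 5.97 and 5.92, and the LIF co-receptor Il6st and Myc fell by 0.37 and 0.26. Prdm14 and Klf2 were also higher in the exon 2 mutant than in wild-type, by 1.30 ± 0.08 and 1.17 ± 0.06. The Hprt knockout arrays lay above wild-type too, at 9.07 and 9.02 for Prdm14 and 11.00 and 10.96 for Klf2.

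Markers of other early fates moved in both directions, beside 26.5% of all genes called higher and 14.6% lower. Of 24 primitive endoderm genes 14 were lower and 6 higher, with a median of -0.35: Srgn fell from 9.63 and 9.81 to 8.15 and 8.23, laminin Lama1 from 8.78 and 8.80 to 7.60 and 7.59, Cubn, an endocytic receptor, by 1.05 and the regulator Gata6 by 0.45. Sox7 rose by 0.96 and Pdgfra by 0.67. Without 1 array, 8 to 12 of these were lower and 3 to 5 higher. In the primed epiblast list 7 of 16 were higher and 3 lower: Otx2 rose by 0.59 and Fgf5 and Pou3f1 fell by 0.76 and 0.58. Neural and Notch genes split evenly, 6 higher and 6 lower of 21. Besides Neurod1, the growth cone protein Gap43 rose by 1.27 and Id4 by 1.03, while the intermediate filament genes Nefm and Nes fell from 8.93 and 9.12 to 6.99 and 7.04 and from 9.47 and 9.25 to 8.17 and 8.17. Trophoblast and simple epithelial genes had 5 of 18 higher and 3 lower, with the tight junction gene Cldn4 from 6.99 and 7.22 to 8.46 and 8.59 and the keratin Krt18 falling by 0.97; leaving out 1 array gave 3 or 4 higher and 1 or 2 lower members. The germ line list had 3 of 17 higher and 5 lower, led by Slc25a31, the germ cell ADP/ATP carrier, at -1.37; without 1 array 1 to 3 were higher and 4 or 5 lower, and under cyclic loess 1 was higher. Mesoderm genes were mostly dim, and of 9 tested only Nodal was called, at 0.37. Of 7 preimplantation genes tested, Pramel7 fell by 1.54 and Arg2 rose by 1.35.

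Genes of the TGF-beta superfamily moved in both directions. Of 42 tested, 14 were higher and 12 lower (26.5% and 14.6% of all genes), and under cyclic loess scaling 12 were higher and 19 lower. Inhba, Tgfb2 (from 9.53 on both arrays to 7.74 and 7.70) and Tgfb3 (-1.04) fell, as did the activin antagonist Fst at -1.01. Bmp2 and the activin B subunit Inhbb, from 9.56 and 9.68 to 10.88 and 10.78, rose; a further probe set of Inhbb gave 0.32. Of the targets, Pmepa1 (-0.88), Skil (-0.76), Id1 (-0.75) and Smad7 (-0.57) were lower and Lefty2 (0.73) and Lefty1 (0.49) higher. The signal transducers Smad2 and Smad4 did not pass, at 0.04 and -0.16, and Tgfbr2 and Tgfbr3 rose by 0.60 each. Comparing Wnt genes, 6 of 29 were higher and 5 lower; the secreted inhibitors Dkk2 and Notum rose from 6.13 and 6.13 to 8.02 and 8.20 and by 1.28, and Wnt5a and the feedback gene Axin2 by 1.15 and 0.74. Without 1 array 2 or 3 of the Wnt list were lower, and under cyclic loess 6 were higher and 6 lower. Of 20 FGF and MAPK feedback genes 9 were higher and 5 lower, among them Dusp4 at 1.03, Fgf4 at 0.80 and Dusp5 at -1.88. Without 1 array 5 to 7 of these were higher and 5 lower, and under cyclic loess 6 were higher and 6 lower.

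In the PI3K-AKT list 11 of 29 were higher and 7 lower (26.5% and 14.6% of all genes), with a median of 0.02. Under cyclic loess scaling 8 were higher and 9 lower and the median was -0.07. Pik3r1, the regulatory subunit p85 alpha, rose from 8.56 and 8.67 to 10.10 and 9.85, Pik3r3 by 0.84 and Foxo3 by 0.85. Rictor, the defining subunit of mTORC2, fell from 10.11 and 10.11 to 9.09 and 9.15, with its other 3 probe sets at -1.13 to -0.88. Leaving out 1 array gave 8 or 9 higher and 4 or 5 lower members. The catalytic subunit Pik3ca and Mtor did not pass, at -0.07 and 0.03. Another catalytic subunit, Pik3cd, went from 13.19 and 13.25 in wild-type to 12.66 and 12.80 in the trap line.

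Genes of the Williams-Beuren interval, in which Gtf2i lies, moved in both directions. Of 24 tested, 6 were higher, 4 lower and 14 not past the threshold, against 41.1% called over all genes; under cyclic loess scaling 5 were higher and 7 lower, and the median of 0.02 became -0.02. Claudin Cldn4 at 1.42 was the widest rise. Abhd11 (0.45), Gtf2ird1 (0.43) and Mettl27 (0.41) rose less. The syntaxin Stx1a fell from 8.32 and 8.34 to 7.81 and 7.80 and Pom121, a nuclear pore protein, by 0.43. Elastin Eln fell by 0.75 on its brighter probe set and read 0.09 on the other. The kinase Limk1 rose by 0.46 (adjusted p = 0.00974), but its 2 further probe sets read -0.32 and 0.15, and the call was lost without trap replicate 1 (0.34) or wild-type replicate 1 (0.36). Bud23 at 0.26 lost its call without trap replicate 2 or wild-type replicate 2 (0.24 each), and Fzd9 at -0.31 without any of the arrays except wild-type replicate 2. Clip2, at -0.38 and not called, was called at -0.59 without trap replicate 1 and at -0.37 under cyclic loess scaling. Baz1b, Rfc2, Eif4h, Tbl2, Nsun5, Bcl7b, Dnajc30, Vps37d, Mlxipl, Tmem270 and Cldn3 did not pass, at -0.16 to 0.17.

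Purine genes, read because the trap line is labelled Hprt-mutant, had 11 of 26 higher and 5 lower (26.5% and 14.6% of all genes). The guanine deaminase Gda rose from 9.18 and 9.17 to 10.30 and 10.22, the phosphoribosyl pyrophosphate synthetase Prps2 from 9.73 and 9.76 to 10.48 and 10.51, and AMP deaminase Ampd3 by 0.74. The salvage enzyme Aprt rose by 0.24 and Adk by 0.39, and adenosine deaminase Ada fell by 0.47. Among the enzymes of the synthesis route, Ppat at 0.25 and Paics at 0.23 were called and Gart at 0.12, Pfas at -0.04 and Atic at 0.05 were not. In the Hprt knockout Gda averaged 5.25, and the trap line exceeded it by 5.01. Without 1 array 2 to 4 of the list were lower.

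Stress and cell cycle lists differed in direction, beside 26.5% of all genes called higher and 14.6% lower. Of 24 p53 targets and cell cycle inhibitors 14 were higher and 2 lower, with a median of 0.29: Cdkn2b rose from 10.43 and 10.37 to 11.48 and 11.46, the membrane protein Perp by 1.04, the imprinted inhibitor Cdkn1c by 0.99, Sesn1 by 0.88 and Mdm2 by 0.81, while Cdkn1a did not pass at 0.11. Of 28 hypoxia and glycolysis genes 11 were lower and 4 higher (7 to 10 lower and 3 or 4 higher without 1 array); Adm, a vasodilator peptide, fell from 10.27 and 10.27 to 8.62 and 8.65, and Vegfa by 1.62, or 0.31 on its other probe set. The amino acid and ER stress list had 14 of 27 lower and 3 higher (13 and 5 under median centring), with Aldh1l2 at -0.74 and Mthfd2 at -0.52 among the mitochondrial folate enzymes and the stress factor Ddit3 at 0.67. Of 33 cell cycle genes 9 were lower and 7 higher; the mitotic kinase Aurka read -0.73 and, on another probe set, -0.07, while Cdc20 fell by 0.56. Without 1 array 3 or 4 cell cycle genes were higher and 6 or 7 lower, and under cyclic loess 3 were higher and 13 lower. Relative to the trap line the exon 2 mutant was higher for 25 hypoxia genes and lower for 2. The counts were 17 and 6 for amino acid and ER stress genes, 27 and 2 for cell cycle genes and 3 and 16 for the p53 list. Over all genes tested, 24.5% were higher in the exon 2 mutant in this comparison and 24.7% lower.

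Of 25 imprinted genes 7 were higher and 6 lower, and the shares over all genes were 26.5% and 14.6% for this and the next lists. Plagl1, a zinc finger growth suppressor, fell from 11.59 and 11.60 to 10.02 and 10.08, and its other probe set gave -0.80. Dnmt3l, the cofactor of new DNA methylation, fell from 11.37 and 11.33 to 10.23 and 10.27, and Tet1 and Dnmt1 rose by 0.63 and 0.38; the list of DNA methylation and Polycomb genes had 7 of 24 higher and 3 lower, 1 or 2 of them lower without 1 array, and a further probe set of Tet1 read -0.08. Hoxb2 fell by 1.14 and Hoxa11 rose by 0.68, with 5 of 23 Hox genes lower and 3 higher; without 1 array 3 to 5 were lower and 1 to 3 higher. Xist, the RNA that silences an X chromosome, was at 11.91 and 11.82 in wild-type, 10.57 and 10.64 in the trap line, 8.82 and 8.89 in the Hprt knockout and 11.85 and 11.78 in the exon 2 mutant. The Y-linked gene Eif2s3y read 10.25 and 10.32 in wild-type and 10.30 on both trap arrays. Of the Y-linked genes, Uty rose by 0.70, Usp9y fell by 0.66 and Kdm5d by 0.23, and each of these calls was lost in at least 3 of the 4 fits without 1 array. Of 19 ribosomal protein genes 1 was called (Rpl14 at 0.54), and respiratory chain genes had 11 of 28 higher and 1 lower, the widest being Ndufs1 at 0.38, with 4 or 5 higher without 1 array and 7 under cyclic loess. Of 6 tested endothelial and haematopoietic genes, Cd68 and Pecam1 were higher, the latter by 0.40 and not called without trap replicate 1, trap replicate 2 or wild-type replicate 1.

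By chromosome, the medians of the autosomes and the X chromosome lay between -0.00 (chromosome 3) and 0.07 (chromosome 17), and the 7 genes tested on the Y chromosome had a median of -0.24. Of these 7, 5 were called lower and 1 higher, beside 14.6% and 26.5% of all genes. Under cyclic loess scaling the chromosome medians fell, and 3 of the 21 stayed above 0 compared with 19 before.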

How the data were processed

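Total RNA of mouse ES cell lines was hybridised to Affymetrix mouse arrays. The authors deposited log2 intensities made with RMA, per the submitters' processing notes, which give no version here. RMA equalises the distributions of the arrays by quantiles, so a shift of most genes is hidden, and it compresses folds of dim probe sets. Column medians were 5.96 to 6.02. Of 45101 probe sets, 64 controls were left out, 34945 had 1 gene symbol, 932 several and 9160 none, per the platform annotation, and 34741 matched the RefSeq gene table by Entrez ID. Only probe sets with 1 symbol were used.

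Each of the 18193 genes was read from the probe set of highest average signal across all 8 arrays, a choice among several for 9010. A gene was tested when above the 40th percentile on at least 2 of 8 arrays (log2 5.35 on average). limma 3.58.1 in R 4.3.3 fitted the 4 groups together, with eBayes and Benjamini-Hochberg adjustment over the 13819 genes tested at 0.05, leaving 4 residual degrees of freedom, or 6.86 after moderation. Errors are standard errors from that fit with 2 arrays a group. The scripts were tested on simulated data. No source used here gives a batch or date.

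The members and lists were chosen with earlier results of these data known. The rule for naming genes covers the targeted genes and their interval, the 20 largest rises and falls whose arrays do not overlap, and for each list the 4 called members that differ most; for the lists, not every gene it covers is printed. Other list members, and genes of the promoter search, were named as examples after their values were seen. Whether replicate numbers pair the arrays was checked from deviations around group means: the correlation was 0.14 for trap and wild-type and -0.28 to 0.17 for the other pairs, so they were not treated as pairs. Alternatives were other scalings, filters, probe set choices, variance priors, a fold threshold, a replicate block and leaving out arrays.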

Additional observations from a re-analysis of the deposited data

How the results depend on the processing

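The number of called genes was 5122 to 6312 under every alternative tried except limma's treat test against a difference of log2 0.5, which called 699 genes (378 higher and 321 lower), and the fits without 1 array, in which the lone array is assumed to vary like the other groups and 3913 to 4276 genes were called. With the replicate number as a block 5170 genes were called, 89.6% of the original calls being shared in direction; Krt8 (-0.48, adjusted p = 0.0598) was the single named gene to lose its call. Genes at least 2-fold different numbered 365 to 493. Cyclic loess gave 5590 calls, 49.9% of them higher, and 3 chromosome medians above 0.

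Hprt kept its direction and call throughout, at -1.41 to -1.31. Gtf2i was not called in any fit: it read 0.072 with the mean of its probe sets (adjusted p = 0.405), where it changed sign, -0.11 with cyclic loess, and -0.054 to -0.013 without 1 array. Other genes of the Williams-Beuren interval near 0 also changed sign without being called. Under cyclic loess these were Gtf2ird2 (-0.015), Eif4h (-0.0024), Vps37d (-0.0094), Dnajc30 (-0.036) and Bcl7b (-0.031). Cldn3 read 0.014 under median centring and Eif4h -0.057 with the mean of probe sets. Without 1 array the values ranged from -0.055 to 0.17 for Gtf2ird2, from -0.078 to 0.0099 for Rfc2, from -0.099 to 0.071 for Cldn3, from -0.13 to 0.19 for Tmem270, from -0.11 to 0.11 for Vps37d, and from -0.030 to 0.041 for Mlxipl. The cause of these changes was not tested.

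The 2 arrays a group, signals near background and quantile normalisation limit what can be read: folds of dim genes are compressed, and small differences depend on the scaling. The trap, the Hprt mutation and the parent line cannot be told apart.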
